A study of Rattus norvegicus with 12 samples.

Results

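Slc17a1, Slc17a3 and Slc22a12 encode anion carriers of the proximal tubule's brush border, the membrane that faces the urine. They were picked because their mRNA rose with cephaloridine while most other carriers of this tubule fell. The dose behind that choice is not recorded; it was taken to be the highest dose against control, so this comparison is described and not tested for them. An array feature was taken as theirs when its accession or gene name mapped to one of the 3. This gave 4 of 41012 features (1 each for Slc17a1 and Slc17a3, 2 for Slc22a12), and 3 of the 20759 genes or unmatched transcripts that could be tested. All 4 features were well above background on all 12 arrays.

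The study measured mRNA in the kidney cortex of male Fisher 344 rats, 8 weeks old, 24 h after a single intravenous injection. Cephaloridine is a cephalosporin antibiotic that is toxic to the proximal tubule. Control animals received saline alone (0 mg/kg), and the low, middle and high groups received 150, 300 and 600 mg/kg of cephaloridine dissolved in saline. Each group held 3 animals with 1 array per animal, and the stated purpose was to compare subtoxic with toxic doses.

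Urate is made from purines, and the kidney both takes it back from the urine and secretes it. Slc22a12 (URAT1) takes urate back across the brush border in exchange for other anions. Slc17a1 (NPT1) and Slc17a3 (NPT4) were first described as phosphate carriers and are known as voltage-driven carriers that let urate and organic anion drugs out toward the urine. In rats the enzyme urate oxidase of the liver breaks urate down further, so urate in the blood is lower than in humans.

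Slide and dose could be separated only in part. Slide 1 carried controls 1 to 3 and low 1, slide 2 low 2 and middle 1, slide 3 low 3 and middle 2, and slide 4 middle 3 and high 1 to 3. Controls and high animals thus shared no slide. Differences from a second fit, with slide as a block (the slide fit), are therefore printed too. Slide 2 was scanned on another day than the rest. The arrays had 75th percentiles of signal from 677 to 774 and 60.0% to 63.9% of spots well above background. All 10 proximal tubule markers tested were well above background on every control array.

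The promoters of the 3 genes are shown because the genes were chosen for moving in the same direction. Each is the stretch of 250 bases before the start listed by RefSeq on the GRCr8 build, printed 5′ to 3′ on the gene's strand, which is the minus strand for all 3. The start listed for Slc17a1 lies inside the span of the gene. Slc17a1 lies at chr17:41681175-41681424, Slc17a3 at chr17:41723110-41723359 and Slc22a12 at chr1:213281381-213281630. Capitals mark the letters of a motif that was found, in Slc17a1 alone.
Slc17a1: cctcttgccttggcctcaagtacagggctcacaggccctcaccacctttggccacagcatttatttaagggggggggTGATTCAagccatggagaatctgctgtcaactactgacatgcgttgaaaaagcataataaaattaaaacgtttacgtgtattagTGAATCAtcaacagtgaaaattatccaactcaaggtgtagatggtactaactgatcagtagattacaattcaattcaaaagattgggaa
Slc17a3: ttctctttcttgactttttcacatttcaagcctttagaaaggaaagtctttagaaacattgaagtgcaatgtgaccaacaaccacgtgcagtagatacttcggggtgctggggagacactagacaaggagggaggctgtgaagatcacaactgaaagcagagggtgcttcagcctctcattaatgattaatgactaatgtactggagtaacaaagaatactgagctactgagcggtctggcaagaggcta
Slc22a12: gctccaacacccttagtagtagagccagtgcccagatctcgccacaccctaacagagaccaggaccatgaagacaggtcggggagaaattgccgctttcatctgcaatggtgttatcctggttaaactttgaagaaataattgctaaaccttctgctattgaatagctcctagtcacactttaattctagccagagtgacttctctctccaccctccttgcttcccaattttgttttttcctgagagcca

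Searched on both strands were the HNF4 site CAAAGTCCA, the antioxidant element TGACNNNGC, the AP-1 site TGANTCA, the xenobiotic element GCGTG and the heat shock element GAANNTTC. HNF4 is a regulator of proximal tubule genes. The AP-1 pattern, in which N allowed any middle base, was matched 2 times before Slc17a1. The matches were TGATTCA at bases 173 to 167 and TGAATCA at bases 89 to 83 before the start, with T and A in the middle. The pattern is found in 6.34% of the 33469 promoter windows of the same length. Binding of AP-1 there was not tested. The other 4 motifs were not in these 3 windows. Their shares over all windows were 0.338% for the HNF4 site, 10.1% for the antioxidant element, 25.9% for the xenobiotic element and 7.23% for the heat shock element. The 2 matches did not overlap.

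In the reference gene table Slc17a1 and Slc17a3 are next to each other on chromosome 17, with Slc17a4 on one side and Slc17a2 on the other, while Slc22a12 is on chromosome 1. Slc17a2, a further member of the same family, did not pass at 600 mg/kg (log2 difference -0.14 ± 0.07, adjusted p = 0.144). The next gene outward, the linker histone gene H1f1, rose by 1.04 ± 0.10 (limma, adjusted p = 8.78e-05; in the slide fit 1.04, adjusted p = 0.072; 0.50 with normexp background correction). Slc17a4 and the histone genes on its far side were not tested. Of 6 genes tested among the 4 neighbours on either side of Slc22a12, the neurexin gene Nrxn2 fell (-0.26, adjusted p = 0.0153; in the slide fit -0.18, adjusted p = 0.581) and the exchange factor gene Rasgrp2 fell (-0.53, adjusted p = 0.00135; in the slide fit -0.74, adjusted p = 0.0439), and Sf1, Pygm, Rps6ka4 and Prdx5 did not pass.

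All levels below are log2 processed signals minus the array's 75th percentile, so they compare arrays for 1 probe and say nothing about 1 gene against another. Slc17a1 read 2.33, 2.23 and 2.40 on controls 1 to 3. The low animals read 2.65, 2.44 and 2.64, the middle animals 2.78, 2.93 and 2.64, and the high animals 2.76, 2.84 and 2.82. All 9 dosed animals lay above all 3 controls, low 2 came closest to them, and middle 3 lay within the range of the low group. The share of all tested genes with all 9 above the controls was not counted, and shares for each dose alone are given below. The high group did not lie beyond the middle group.

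Slc17a1 was 1.20-fold higher than control at 150 mg/kg (log2 0.26 ± 0.08, limma standard error, n = 3 per group), 1.38-fold at 300 mg/kg (0.47 ± 0.08) and 1.40-fold at 600 mg/kg (0.49 ± 0.08). Most of the difference was therefore present at the middle dose, and the step from middle to high was 0.02 ± 0.08. With slide as a block the differences were larger, at 0.33 ± 0.08, 0.65 ± 0.10 and 0.81 ± 0.13. The last value is built from steps inside slides. Low 1 exceeded the mean of the controls on its slide by 0.33, middle 1 exceeded low 2 by 0.34, middle 2 exceeded low 3 by 0.29, and the high animals on average exceeded middle 3 by 0.16. Each of these 4 steps was upward. The first and last use the control and high arrays, which were taken to have chosen the gene for rising. The share of all tested genes with 4 upward steps was not counted, so nothing is read from this count.

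Slc17a3 read 4.22, 4.26 and 4.35 on controls 1 to 3, and 4.31, 4.35 and 4.48 on low 1 to 3. Middle 1 to 3 read 4.60, 4.56 and 4.56, and high 1 to 3 read 4.69, 4.75 and 4.72. The low animals overlapped the controls, whereas every middle animal lay above every low animal and every high animal above every middle animal. Middle wholly above low was seen in 12.4% of tested genes. The share with high wholly above middle was not counted, so nothing is read from that separation. The middle group was the tightest, with a mean of 4.57 ± 0.02 (SD, n = 3), although its 3 animals were on 3 slides.

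Against control, Slc17a3 was 1.08-fold higher at 150 mg/kg (log2 0.11 ± 0.05), 1.23-fold at 300 mg/kg (0.30 ± 0.05) and 1.36-fold at 600 mg/kg (0.45 ± 0.05). With slide as a block these were 0.03 ± 0.08, 0.20 ± 0.10 and 0.36 ± 0.12. Inside slides, low 1 exceeded its controls by 0.03, middle 1 exceeded low 2 by 0.25, middle 2 exceeded low 3 by 0.08, and the high animals exceeded middle 3 by 0.16. All 4 steps were upward, the first by less than the spread between controls. As for Slc17a1, nothing is read from this count.

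Slc22a12 was read by 2 probes. The brighter gave 3.49, 3.60 and 3.63 on controls 1 to 3 and 3.71, 3.66 and 3.68 on low 1 to 3. It gave 3.66, 3.72 and 3.90 on middle 1 to 3 and 3.97, 3.89 and 3.91 on high 1 to 3. Middle 1 and middle 2 were close to the low animals, and middle 3, the animal on the slide of the high group, lay within the range of that group.

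The dimmer probe of Slc22a12 followed the same course. Controls 1 to 3 read 2.32, 2.35 and 2.38, and low 1 to 3 read 2.49, 2.48 and 2.48. Middle 1 to 3 read 2.51, 2.53 and 2.68, and high 1 to 3 read 2.81, 2.79 and 2.74. Here too middle 3 stood above the other middle animals, but below all 3 high animals. The probes correlated with r = 0.972 over the 12 arrays, which share the same dose steps.

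By the brighter probe Slc22a12 was 1.08-fold higher than control at 150 mg/kg (log2 0.11 ± 0.06), 1.14-fold at 300 mg/kg (0.19 ± 0.06) and 1.27-fold at 600 mg/kg (0.35 ± 0.06). By the dimmer probe the differences were 0.13 ± 0.05, 0.22 ± 0.05 and 0.43 ± 0.05. With slide as a block the brighter probe gave 0.14 ± 0.07 at 150 mg/kg, 0.16 ± 0.09 at 300 mg/kg and 0.18 ± 0.12 at 600 mg/kg, nearly the same value at each dose. Inside slides, low 1 exceeded its controls by 0.14, but middle 1 minus low 2 was -0.003, middle 2 minus low 3 was 0.05, and the high animals minus middle 3 was 0.02. The dimmer probe gave 0.14 ± 0.06, 0.18 ± 0.08 and 0.28 ± 0.10 with slide as a block, and its 4 steps in the same order were 0.14, 0.03, 0.05 and 0.10. All 4 were upward for that probe, a count from which, as for Slc17a1, nothing is read. They sum to less than the difference without the slide term when the steps on slides 2 and 3 are averaged. The part of slide 4 in the level of Slc22a12 at the high dose was not tested.

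**Figure D1:**
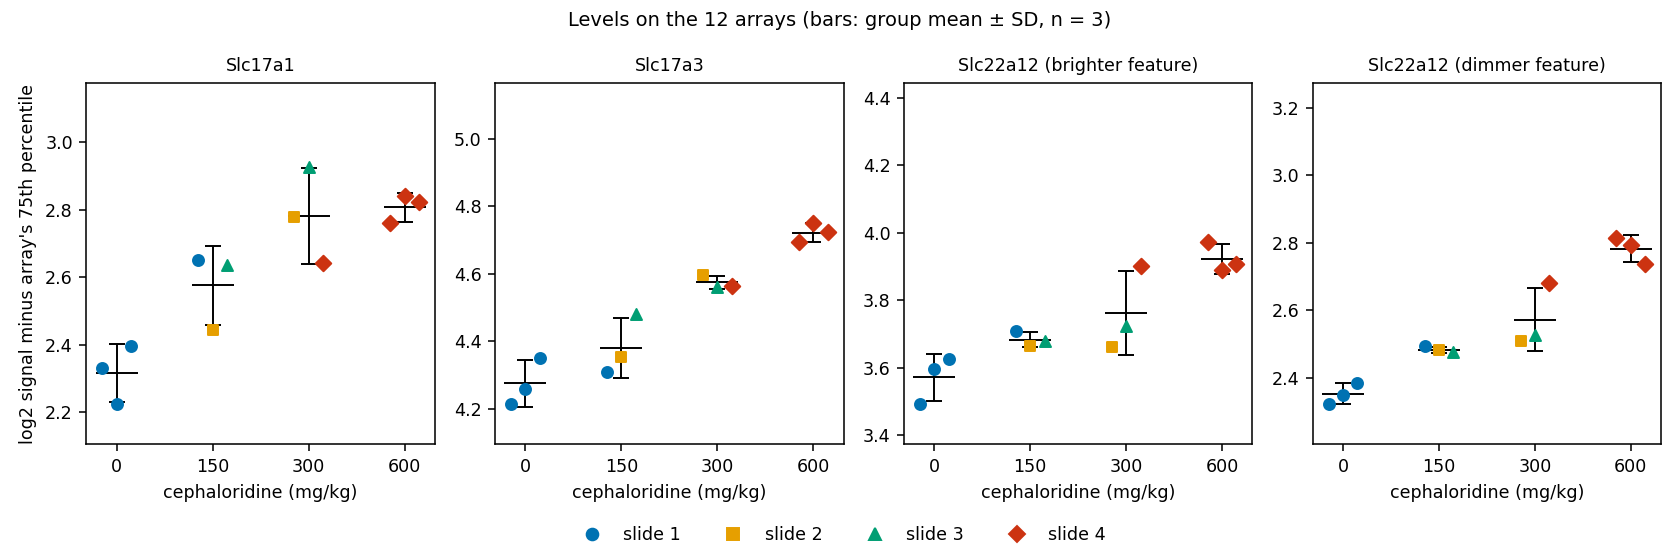
Level of each carrier (vertical axis, log2 signal minus the array's 75th percentile) by dose of cephaloridine (horizontal axis, mg/kg); each point is 1 animal, its shape and colour give the slide, and bars are the group mean ± SD (n = 3). By group means, Slc17a3 climbs from 4.57 at the middle dose to 4.72 at the high dose and Slc17a1 is level there. In the slide fit this step is 0.16 for both genes, and a difference between them was not tested. For Slc22a12 the middle animal on slide 4 stands at 3.90 by the brighter probe, beside the high animals.

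At 600 mg/kg every high animal lay above every control for each of the 3 genes, a pattern seen in 28.5% of all tested genes. This comparison was taken to have chosen the genes, so nothing is read from it. Of all tested genes, 18.0% were called higher there and 16.8% lower at a Benjamini-Hochberg adjusted p under 0.05. At 300 mg/kg all 3 genes again lay wholly above the controls, against 20.5% of tested genes. At 150 mg/kg Slc17a1 and Slc22a12 did and Slc17a3 did not, against 11.0%. The comparisons with control share the control arrays, which were taken to have helped to choose the genes, and no test is given for them.

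**Figure D2:**
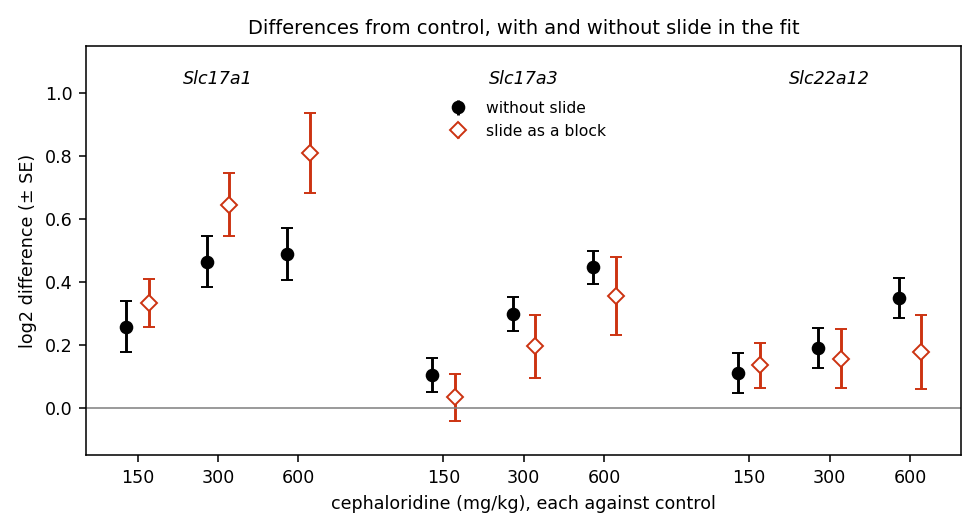
Difference from control of each carrier (vertical axis, log2, ± standard error) at 150, 300 and 600 mg/kg of cephaloridine (horizontal axis), with 3 animals per group. Filled circles leave slide out of the fit and open diamonds include it as a block: at 600 mg/kg Slc17a1 goes from 0.49 to 0.81, Slc17a3 from 0.45 to 0.36 and Slc22a12 from 0.35 to 0.18.

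If the genes were chosen on the high and control groups, as taken here, the difference between 150 and 300 mg/kg uses neither and could be tested. Its standard error, however, comes from the fit of all 12 arrays and includes the spread within the high and control groups. With only the 2 groups in the limma fit, adjusted p was 0.522 for Slc17a1, 0.45 for Slc17a3 and 0.729 for Slc22a12. Should the middle and low groups also have entered the choice, the p-values of the 3 genes for this step would be too small and are only a description. None of the 3 passed in limma with adjustment over all 20759 genes, and 2 of the 3 had an unadjusted p under 0.05, as did 3320 of all genes. In this comparison 0.193% of genes were called higher and 0.0385% lower. Slc17a3 was 0.19 higher (95% interval 0.08 to 0.31, unadjusted p = 0.00448, adjusted p = 0.154 in limma) and its middle and low groups did not overlap, which 12.4% of tested genes showed in this direction. Slc17a1 was 0.21 higher (0.03 to 0.39, adjusted p = 0.263 in limma), with middle 3 below low 1. Slc22a12 was 0.08 higher (-0.06 to 0.22, adjusted p = 0.572 in limma), and its dimmer probe 0.09 higher (adjusted p = 0.419). With slide as a block these steps were 0.16, 0.31 and 0.02 for Slc17a3, Slc17a1 and Slc22a12 (adjusted p = 0.23, 0.0967 and 0.88 in limma). The interval of Slc22a12 holds 0 and also steps about as large as that of Slc17a1, so the 3 are not shown to differ.

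Slc17a3 had the closest companions among all genes with a reference symbol, by Pearson correlation over the 12 arrays. First was the cytosolic acetyl-CoA acetyltransferase gene Acat2 (r = 0.994), followed by the actin-binding gene Pfn2 (0.976), the mitochondrial ribosome gene Mrps5 (0.975), the quinone reductase gene Nqo1 (0.974) and the conjugate exporter gene Abcc2 (0.973). Acat2 was 0.43 higher at 600 mg/kg on the log2 scale, close to the 0.45 of Slc17a3, while Abcc2 was 3.00 and Nqo1 2.20 higher. For Slc17a1 the nearest were Dap (0.980), Syt17 (0.976), the ceramidase gene Asah2 (0.963), the mitochondrial protease gene Afg3l2 (0.957) and the phospholipase gene Pla2g10 (0.957). For Slc22a12 they were the ribosomal gene Rplp1 (0.962), Skap1 (0.954), the mitochondrial ferredoxin gene Fdx2 (0.953), Bag6 (0.953) and Emc10 (0.951). The 3 lists share no gene. These are the highest of many correlations over arrays that carry the same 4 dose groups and slides.

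Among themselves, Slc17a1 and Slc17a3 correlated with r = 0.855 over the 12 arrays, Slc17a3 and Slc22a12 also with 0.855, and Slc17a1 and Slc22a12 with 0.687. After each group's mean was taken off, the values were 0.27, 0.03 and -0.36. The choice of genes with a common direction fixes part of the first set of values. Middle 3 was the lowest middle animal for Slc17a1 and the highest for Slc22a12.

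Of 12 other genes of urate transport, 9 were tested, and 3 fell and 0 rose at 600 mg/kg (limma, adjusted p under 0.05). The 9 had a median of -0.07, where the median of all tested genes was -0.002. Of all tested genes 16.8% were called lower and 18.0% higher. The basolateral anion carriers Slc22a6 (OAT1; -0.45 ± 0.10, adjusted p = 0.00697) and Slc22a8 (OAT3; -0.53 ± 0.10, adjusted p = 0.00247) fell. So did Pdzk1 (-0.32 ± 0.05, adjusted p = 0.00143), which encodes a scaffold that anchors URAT1 and NPT1 at the brush border. With slide as a block none of the 3 passed (-0.32, -0.15 and -0.26; adjusted p = 0.48, 0.664 and 0.223). The urate exporter Abcg2 (-0.07, adjusted p = 0.231), the exporter Abcc4 (0.12, 0.36), the anion carrier Slc22a7 (0.36, 0.0755), the carrier Slc22a13 (0.16, 0.516), the lactate carrier Slc5a12 (-0.32, 0.104) and the scaffold gene Nherf1 (0.07, 0.638) did not pass. No feature was matched to Slc2a9, Slc16a9 or Slc5a8. At 300 mg/kg against 150 mg/kg 0 of the 9 were called in limma, and 2 had an unadjusted p under 0.05. At 300 mg/kg against control Abcg2 rose (0.17, adjusted p = 0.0255; in the slide fit 0.19, adjusted p = 0.277) and 0 of the others passed.

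Of the other 7 genes of the SLC17 family, 3 were tested and 0 were called at 600 mg/kg in limma, and 0 had an unadjusted p under 0.05. At 300 mg/kg against control 1 of the 3, Slc17a5, rose (0.21, adjusted p = 0.035; in the slide fit 0.14, adjusted p = 0.493). Besides Slc17a2, the genes tested were the lysosomal sialic acid carrier Slc17a5 (-0.11 ± 0.06 at 600 mg/kg, adjusted p = 0.163) and the nucleotide carrier Slc17a9 (-0.07 ± 0.15, adjusted p = 0.739; in the slide fit 0.84, adjusted p = 0.0612). The vesicular glutamate carriers Slc17a6, Slc17a7 and Slc17a8 are genes of neurons and did not reach the filter on dim signals, and no feature was matched to Slc17a4.

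Of 11 tested genes that make or break down urate and its precursors, 5 rose and 2 fell at 600 mg/kg, with a median of 0.07. Of all tested genes 18.0% were called higher and 16.8% lower, so the falls were near that share. In the slide fit 2 of the 11, Gda and Ampd3, rose and 0 fell. The guanine deaminase gene Gda rose by 0.91 ± 0.08 (adjusted p = 5.41e-05; in the slide fit 1.09, adjusted p = 0.0301) and the AMP deaminase gene Ampd3 by 0.71 ± 0.05 (adjusted p = 9.41e-06; in the slide fit 0.64, adjusted p = 0.0434). Prps1, which makes the ribose donor of purine synthesis, rose by 0.27 (adjusted p = 0.0024) and was not past with slide as a block (0.36, adjusted p = 0.125). Nt5e, the ectoenzyme that frees adenosine, fell by 0.43 (adjusted p = 0.000654; in the slide fit -0.31, adjusted p = 0.168). The fall of the adenosine deaminase gene Ada (-0.16, adjusted p = 0.0345) was lost without any 1 of the 6 control and high arrays (highest adjusted p = 0.105) and turned to 0.04 with slide as a block. Xdh, whose enzyme makes urate, did not pass (-0.22, adjusted p = 0.179), and urate oxidase, Uox, did not reach the filter on dim signals.

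Carriers of the proximal tubule other than the 3 mostly fell at 600 mg/kg: of 41 tested, 27 fell and 2 rose, with a median of -0.35, against 16.8% and 18.0% of all genes. Slc22a6, Slc22a7, Slc22a8 and Abcc4 are also among the urate transport genes above. The largest falls were in the amino acid carrier Slc7a7 (-0.85 ± 0.11, adjusted p = 0.000416), the phosphate carrier Slc34a3 (-0.73 ± 0.08, adjusted p = 0.000143) and the bicarbonate carrier Slc4a4 (-0.71 ± 0.12, adjusted p = 0.00241). The exporter Abcc2 rose by 3.00 (adjusted p = 5.28e-07). The phosphate carrier Slc34a2 rose by 0.45 (adjusted p = 0.0125), which was lost without control 1 (adjusted p = 0.0505) and turned to -0.14 with slide as a block. With slide as a block 5 of the 41 were lower and 1, Abcc2, higher, and the median was -0.25. Slc7a7, Slc34a3 and Slc4a4 were not past there (-0.46, -0.56 and -0.09; adjusted p = 0.336, 0.167 and 0.86). The differences of 0.35 to 0.49 for Slc17a1, Slc17a3 and Slc22a12 (0.18 to 0.81 with slide as a block) stand against a list median of the opposite sign under both fits. The genes were chosen for that contrast, and no test is made of it.

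At 300 mg/kg against control 3 of the 41 rose and 0 fell, with a median of -0.03, where 8.21% of all tested genes were called higher and 4.81% lower. The 3 were Abcc2, the peptide carrier Slc15a1 and the glutamate carrier Slc1a1, and in the slide fit Abcc2 alone passed (2.07, adjusted p = 0.00797). The 3 carriers were 0.19 to 0.47 higher at that dose. Between 150 and 300 mg/kg the list's median was -0.07 and Abcc2 alone was called (1.49, adjusted p = 0.000784).

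**Figure D3:**
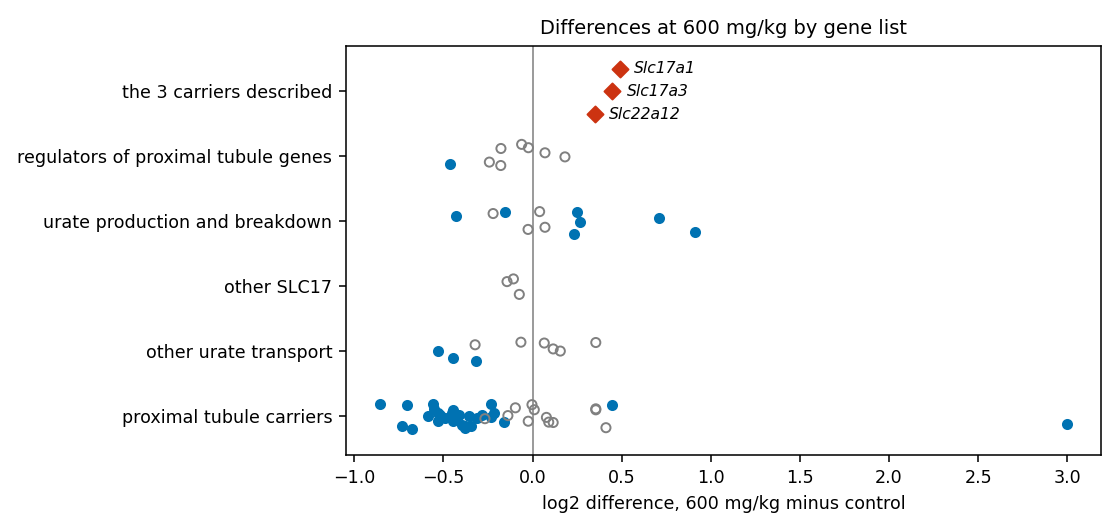
Log2 difference of 600 mg/kg minus control (horizontal axis) for each tested gene of 5 lists, with the 3 carriers above. Filled circles had an adjusted p under 0.05 in limma and open circles did not. Diamonds were not tested because this comparison was taken to have chosen them. The carriers lie from 0.35 to 0.49 and the median of the 41 proximal tubule carriers at -0.35, with Abcc2 far to the right at 3.00.

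Of 9 regulators of proximal tubule genes 8 were tested, and Hnf4a fell (-0.46 ± 0.05, adjusted p = 0.000146; in the slide fit -0.54, adjusted p = 0.0465). Hnf4g did not pass (0.07 ± 0.12, adjusted p = 0.682), nor did Cebpa (-0.18, 0.212), Ppara (-0.06, 0.501), Nr1h4 (-0.18, 0.13) or Nfe2l2 (0.18, 0.0683). Ahr did not reach the filter on dim signals.

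Markers of several cell types moved at the high dose, and their part in the results was not tested. In bulk tissue, fewer cells of a type and less RNA per cell cannot be told apart. Of the 10 proximal tubule markers 8 fell and 0 rose (2 fell with slide as a block). Their summed signal relative to the 75th percentile ran from 787 to 811 in controls, 768 to 816 at the low dose, 746 to 782 at the middle dose and 593 to 613 at the high dose. At the high dose the 3 carriers were above control while this sum was below it. At the low dose the sum overlapped the controls. The genes were chosen for rising while other carriers fell, and Aqp1, Slc34a1, Slc5a2 and Slc22a6 are both markers and listed carriers. Nothing further is read from this contrast. Of 4 loop of Henle markers 1 rose, of 2 distal convoluted tubule markers 2, of 5 collecting duct markers 2 and of 4 macrophage markers 3. None of these fell. Of all tested genes 18.0% were called higher and 16.8% lower, and the loop of Henle count is near that share. In the slide fit 1 distal convoluted tubule marker rose and none of the loop, collecting duct, macrophage or endothelial markers passed. Of 3 endothelial markers 2 fell without it, and of 3 glomerular markers 0 were called, with 0 at an unadjusted p under 0.05. The sums of the macrophage markers were 7.35 to 8.12 in controls and 10.04 to 11.17 at the high dose.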

How the data were processed

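Single-colour Agilent arrays of 12 rat kidney cortex samples were used. Per the file headers, the authors extracted signals with Agilent Feature Extraction 9.1.3.1, and the deposited processed, mean and background signals are linear intensities. Flags mark spots as outliers or well above background. The authors' deposited value table is a linear ratio of the processed signal to 1 constant per array (column medians 1.003 to 1.005). It served as an alternative.

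Log2 processed signals were averaged over a probe's spots without outliers, and each array's 75th percentile was subtracted. Probes were named through RefSeq: 10735 by accession, 5577 by symbol and 3730 by older symbol, with 20970 unmatched. The brightest probe stood for a gene. A gene was tested (20759) if it was well above background throughout at least 1 group and unmarked as an outlier on 2 or more arrays in each. All 12 arrays entered a single fit with a mean for every group (limma 3.58.1, R 4.3.3), which was first tested on simulated data. All p-values are two-sided. Alternatives changed the normalization, background correction, filter, probe rule, samples in the fit, slide or replicate block, or left out an array. P-values were adjusted by the Benjamini-Hochberg method within a comparison. Errors measure the spread between these animals, which in the low and middle groups includes slides where slide is not in the fit. Without slide in the fit they do not cover a slide difference between controls and high animals. The 3 arrays per group limit the precision.

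Members and lists were chosen with earlier results of these data known. Named were all probes of the 3 genes, all tested genes of the urate transport and SLC17 lists, the 3 largest rises and falls called in each other list and the 5 most correlated genes. Genomic neighbours, steps inside slides, Xdh, Uox, other regulators and calls at 300 mg/kg were added after values were seen. No protein or probe sequences were used here. Some genes and motifs of the lists are not reported here.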

Additional observations from a re-analysis of the deposited data

How the results depend on the processing

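The 12 differences of the 3 carriers (4 comparisons) were above 0 under every alternative tried. The differences from control share arrays taken to have chosen the genes for rising, so nothing is read from their sign. The 3 steps from 150 to 300 mg/kg stayed short of the threshold under all 21 alternative fits. Their adjusted p ran from 0.0967 to 0.528 for Slc17a1, 0.105 to 0.45 for Slc17a3 and 0.283 to 0.947 for Slc22a12. Slide as a block moved the differences from control to 0.81, 0.356 and 0.179 at 600 mg/kg for Slc17a1, Slc17a3 and Slc22a12, and to 0.646 and 0.197 at 300 mg/kg for Slc17a1 and Slc17a3. Quantile normalization gave 0.223 for Slc17a3 at 300 mg/kg, and normexp background correction 0.289 and 0.056 for Slc22a12 at 600 and 150 mg/kg. Leaving out 1 array moved 5 differences by over 1.5 times: the step from 150 to 300 mg/kg of Slc22a12 (0.009 without middle 3, 0.129 without middle 1) and of Slc17a1 (0.134 without middle 2), Slc22a12 at 300 mg/kg (0.121 without middle 3) and at 150 mg/kg (0.073 without control 1), and Slc17a3 at 150 mg/kg (0.055 without low 3). Genes called at 600 mg/kg numbered 3732 higher and 3492 lower, and 380 and 204 with slide as a block. Between 150 and 300 mg/kg they numbered 40 higher and 8 lower, 25 and 4 in the authors' value table, 13 and 1 with no filter on dim probes, 16 and 2 with a replicate block, and 0 and 0 in limma with only the 2 groups compared, where 2084 genes had an unadjusted p under 0.05 (3320 with all groups). Lower genes there numbered 4 with quantile normalization and 40 with slide as a block. Leaving out each array gave 11 (without low 2 or middle 2) to 69 (without middle 1) higher and 1 (without middle 2) to 56 (without low 1) lower there. It gave 2812 to 4171 higher and 2533 to 4031 lower at 600 mg/kg. The causes were not tested. Same-numbered animals did not deviate together (1 of 18 pairs correlated above 0.1, range -0.225 to 0.116). This does not show how the animals were numbered. Every group holds each replicate number, so the replicate block could not change the carriers' differences (Slc17a1, 0.49 at 600 mg/kg). Only their errors could move (Slc17a1 at 600 mg/kg, standard error 0.082 without and 0.091 with this block). The median standard error at 600 mg/kg was 0.076, and 0.154 with slide as a block.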
